A study of Mus musculus with 13 samples.

Results

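The growth hormone and STAT5 dependent genes of the mouse liver were followed after bile duct ligation (BDL) through 10 genes, out of 23785 counted in any of the 3 deposited tables. The genes were given by name and found in the tables by their Entrez identifiers, and all 10 were present. Ghr and Stat5b are the receptor and the transducer of the pathway. Igf1 and Igfals encode parts of the circulating IGF complex, Socs2 and Cish encode feedback inhibitors, and Hsd3b5, Serpina4-ps1, Elovl3 and Selenbp2 are hepatocyte output genes. The genes were selected on their read counts in these same livers, with their lower levels after BDL known, so their differences from livers without BDL are given as a description. Liver RNA came from 13 C57 mice aged 3 months. The no BDL group held 5 mice, labelled as non-treated. The miR-Ctrl BDL group held 4 mice that were ligated and received a control oligonucleotide, and the anti-miR-873-5p BDL group, called the inhibitor group here, held 4 mice that were ligated and received a hairpin inhibitor of the microRNA miR-873-5p. Per the study's methods the mice were male, each injection carried 60 µg of oligonucleotide per mouse, injections were given into the tail vein on days 3 and 5 after ligation, and livers were taken on day 7. The no BDL mice had neither the ligation nor an oligonucleotide, so ligation, surgery and injection cannot be told apart in comparisons with them. Nothing in the sources limits the oligonucleotides to a cell type, and the samples are whole liver.

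Growth hormone binds its receptor on hepatocytes and activates the kinase JAK2, which phosphorylates the transcription factors STAT5A and STAT5B. STAT5 dimers enter the nucleus and switch on Igf1 and Igfals, whose products travel in the blood in a complex with IGF binding proteins. The same dimers switch on Socs2 and Cish, which dampen the receptor's signal. In rodents the pituitary releases growth hormone in separate pulses in males and more steadily in females. Many liver genes therefore differ between the sexes, and Hsd3b5, Serpina4-ps1, Elovl3 and Selenbp2 belong to the male set in mice. Bcl6 encodes a repressor that competes with STAT5 at some of these genes.

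Promoter windows of 7 of the 10 genes were used, which run from 250 bases before to 50 bases after an annotated start (RefSeq, GRCm38.p6). The windows of Ghr, Stat5b, Igf1, Igfals, Cish, Hsd3b5 and Selenbp2 were searched for TTCNNNGAA, the letters of the usual STAT5 motif, which read the same on both strands. This pattern occurred in 3 of their 11 windows, in those of 2 of the 7 genes, and in 8.30% of all 32851 windows. Stretches of 30 bases around the matches in Cish and Igfals are shown, since these 2 genes carry the only matches found among the 7. Socs2, Elovl3 and Serpina4-ps1 were not searched. A match from Socs3, a further inhibitor of the same family described below, is set beside them. Bcl6 was also searched, and its windows held 1 and 3 matches, which are not shown. Capitals mark the pattern, and all are written 5′ to 3′ on the strand of the gene.
Cish, chr9:107296654-107296683, plus strand, at the annotated start: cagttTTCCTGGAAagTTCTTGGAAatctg
Igfals, chr17:24877598-24877627, plus strand: gatctataatTTCTCAGAAaagaggctgag
Igfals, chr17:24878163-24878192, plus strand: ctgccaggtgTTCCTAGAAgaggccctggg
Socs3, chr11:117969501-117969530, minus strand: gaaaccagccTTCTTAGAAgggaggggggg
The Cish stretch holds the pattern 2 times. A match is a string of letters and was not measured as a binding site.

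The libraries held 12185333 to 19689037 reads assigned to genes. Levels below are normalized counts (edgeR's cpm) on a scale common to all 13 mice. Mice are numbered within each group, and the same number in different groups names different animals. The table of the 2 ligated groups holds 3 mice per group and leaves out miR-Ctrl BDL mouse 3 and inhibitor mouse 2. Those 2 livers stood apart from the other ligated livers in Spp1, the osteopontin gene, which was at 381 and 184 in them and at 1016 to 1567 in the other 6, against 32.9 to 113 without BDL. No other cholangiocyte marker was below the other 6 ligated livers in both of them. In miR-Ctrl BDL mouse 3 Sox9 (44.8) and Krt7 (11.6) were the highest of the group, and in inhibitor mouse 2 Sox9 (13.3) and Epcam (4.08) were the lowest. The 2 livers also had the lowest sums of 5 endothelial markers, 25.9 and 37.3 against 54.8 to 106 in all others. Lyve1 of that list was nevertheless highest in inhibitor mouse 2 (14.9). Their macrophage, lymphocyte and stellate sums were the lowest of their groups. Summed neutrophil markers reached 226 in miR-Ctrl BDL mouse 3, against 18.9 in inhibitor mouse 2 and at most 76.3 elsewhere. The part of cell content in other values of these 2 livers was not tested. Log2 fold changes that rest on these livers are given with and without them. Summed hepatocyte markers (9 genes, none at 0) were 137026 to 147753 without BDL, 87999 to 120645 in miR-Ctrl BDL and 79972 to 135604 in the inhibitor group. The members differed in direction. Of the list's 10 genes, Ttr, Serpina1c, Apoa1 and Cps1 fell and Trf rose in miR-Ctrl BDL, and Ttr and Serpina1c fell in the inhibitor group, with median log2 fold changes of −0.57 and −0.36. In whole liver fewer hepatocytes and less RNA per hepatocyte cannot be told apart.

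**Figure D1:**
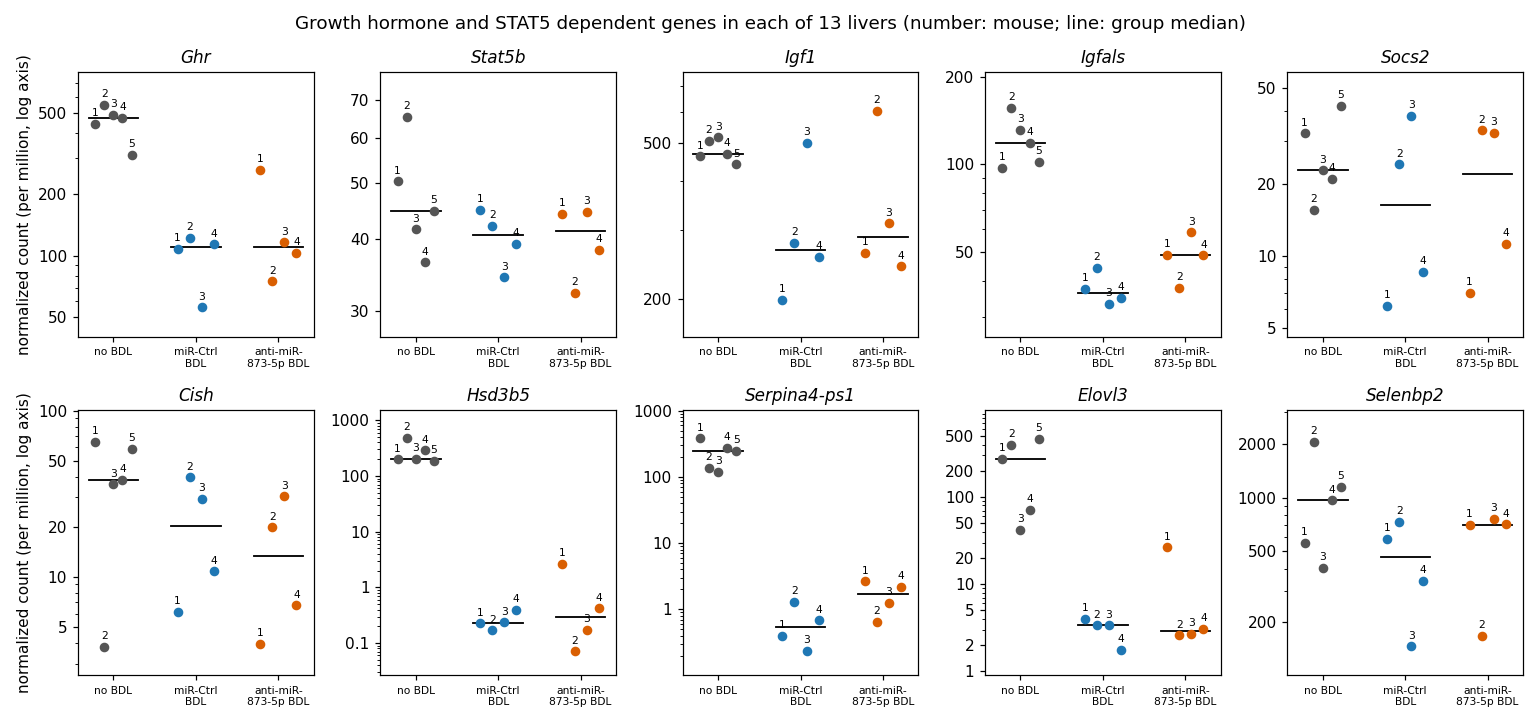
Normalized counts of the 10 genes (log axis, 1 panel a gene) in each of 13 livers, with points numbered by mouse and a line at each group's median. Hsd3b5, Serpina4-ps1, Elovl3, Ghr and Igfals show ligated livers that all lie below the 5 livers without BDL, while the groups overlap for the other 5 genes.

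Ghr, Entrez 14600 (chromosome 15, 3317755 to 3583352), encodes the growth hormone receptor. Its level was 441, 549, 489, 475 and 312 in the 5 livers without BDL. In miR-Ctrl BDL it was 108, 123, 56.1 and 114, and in the inhibitor group it was 263, 75.2, 117 and 103. Every ligated liver was below every liver without BDL, and inhibitor mouse 1 lay closest to them. The log2 fold change against no BDL was −2.15 (SE 0.259) in miR-Ctrl BDL and −1.67 (SE 0.357) in the inhibitor group, or 4.44-fold and 3.19-fold lower. Without miR-Ctrl BDL mouse 3 the first value was −1.96, and without inhibitor mouse 2 the second was −1.47.

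Stat5b, Entrez 20851 (chromosome 11, 100780731 to 100859004), encodes the STAT5 form that carries most of the growth hormone signal in liver. Its level was 50.4, 65.3, 41.6, 36.4 and 44.8 without BDL, 45.0, 42.2, 34.3 and 39.3 in miR-Ctrl BDL, and 44.3, 32.2, 44.6 and 38.3 in the inhibitor group. The 3 groups overlapped, with log2 fold changes of −0.22 (SE 0.17) and −0.23 (SE 0.18) against no BDL. Of its 50-base windows, the length of the reads, 11% also occur in Stat5a, so some reads could come from either gene.

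Per kilobase of exon, the scale on which genes can be compared, the median of Ghr was 52.4 and that of Stat5b 8.09 without BDL. In miR-Ctrl BDL the medians were 12.3 and 7.35. The receptor's lead over the transducer per kilobase was thus smaller in ligated livers.

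Igf1, Entrez 16000 (chromosome 10, 87858265 to 87937047), encodes insulin-like growth factor 1, the main secreted product of growth hormone action in liver. Livers without BDL lay close together at 463, 508, 519, 470 and 442. In miR-Ctrl BDL the levels were 199, 278, 501 and 256, and in the inhibitor group they were 263, 606, 313 and 242. In each ligated group 3 livers lay below all livers without BDL, and the exceptions were miR-Ctrl BDL mouse 3 and inhibitor mouse 2, the livers with the lowest Spp1 of the ligated groups. The log2 fold change was −0.62 (SE 0.235) in miR-Ctrl BDL and −0.42 (SE 0.256) in the inhibitor group. Without these 2 livers it was −0.96 and −0.80.

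Igfals, Entrez 16005 (chromosome 17, 24877844 to 24882011), encodes the acid-labile subunit that holds IGF1 and its binding protein together in blood. Its level was 97.4, 157, 132, 119 and 102 without BDL, 37.4, 44.4, 33.3 and 34.9 in miR-Ctrl BDL, and 49.0, 37.8, 58.6 and 48.9 in the inhibitor group. Ligated livers and livers without BDL did not overlap. The log2 fold change was −1.67 (SE 0.168) in miR-Ctrl BDL and −1.29 (SE 0.185) in the inhibitor group. Leaving out the 2 livers that stood apart gave −1.62 and −1.20, so the Igfals values did not rest on them as those of Igf1 did.

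Socs2, Entrez 216233 (chromosome 10, 95383903 to 95417321), and Cish, Entrez 12700 (chromosome 9, 107296659 to 107302784), encode inhibitors that STAT5 induces and that restrain the receptor. Socs2 was at 32.3, 15.6, 22.7, 20.9 and 42.2 without BDL, at 6.20, 24.0, 38.4 and 8.61 in miR-Ctrl BDL, and at 7.02, 33.3, 32.6 and 11.2 in the inhibitor group. The ligated livers divided in both groups, with mice 1 and 4 below all livers without BDL and the other ligated livers within their range. Cish was at 65.0, 3.78, 35.9, 38.4 and 58.9 without BDL, at 6.14, 39.6, 29.4 and 10.8 in miR-Ctrl BDL, and at 3.96, 19.8, 30.4 and 6.74 in the inhibitor group. The same ligated livers were low for Cish. Its lowest value of all, however, was in no BDL mouse 2, which also had the lowest Socs2 of its group.

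Both inhibitors varied widely within groups. For Socs2 the highest liver was 2.71 times the lowest without BDL, 6.19 times in miR-Ctrl BDL and 4.75 times in the inhibitor group. For Cish these ratios were 17.2, 6.45 and 7.70. The log2 fold changes against no BDL were −0.46 (SE 0.503) and −0.33 (SE 0.461) for Socs2, and −0.89 (SE 0.708) and −1.38 (SE 0.741) for Cish. For Socs2 the value was −1.02 in miR-Ctrl BDL without mouse 3 and −0.64 in the inhibitor group without mouse 2.

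After each group's mean was subtracted on the log2 scale, Socs2 and Cish moved together across the 13 livers (Pearson r 0.824, Spearman rho 0.802, and r 0.828 without the 2 livers farthest from the median). Other pairs of the 10 genes went either way. Ghr and Hsd3b5 gave r 0.765, while Ghr and Socs2 gave −0.724, Socs2 and Hsd3b5 −0.701, and Igf1 and Selenbp2 −0.731. Their Spearman rho was 0.571, −0.747, −0.753 and −0.544. Without the 2 livers farthest from the first gene's median, r was 0.699, −0.530, −0.768 and −0.273. For Igf1 and Selenbp2 those 2 were miR-Ctrl BDL mouse 3 and inhibitor mouse 2, and r was much weaker without them. Hsd3b5 rested on few reads in ligated livers, as given below. Cish ranked 72 among 12378 genes by its r to Socs2. Bcl6, the STAT5 competitor, stood on the other side. It was at 20.04, 104, 9.24, 9.40 and 16.3 without BDL, at 37.8, 6.14, 19.0 and 42.9 in miR-Ctrl BDL, and at 73.2, 8.30, 9.29 and 46.8 in the inhibitor group. The 5 livers with the highest Bcl6 were the 5 with the lowest Cish, namely no BDL mouse 2 and mice 1 and 4 of each ligated group. This is a description across livers whose values come from the same libraries, and no test was made.

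**Figure D2:**
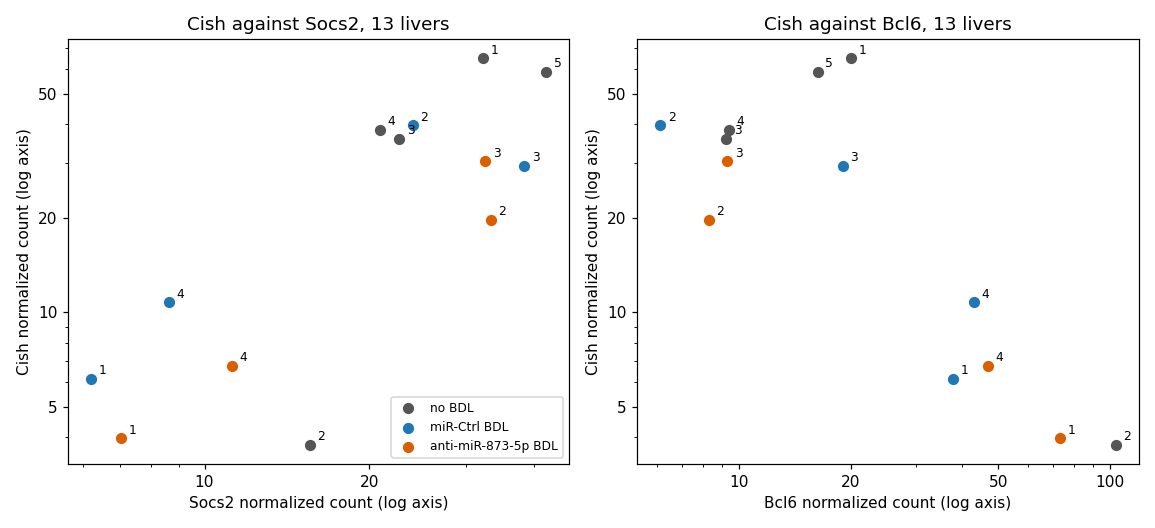
Cish normalized counts against those of Socs2 (left) and Bcl6 (right) in 13 livers, all axes log, coloured by group and numbered by mouse. The 5 livers lowest in Cish, from 3.78 to 10.8, are the 5 highest in Bcl6, from 37.8 to 104, and they come from all 3 groups.

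Hsd3b5, Entrez 15496 (chromosome 3, 98618636 to 98645534), encodes a male-biased steroid dehydrogenase of hepatocytes. It was at 199, 481, 202, 288 and 186 without BDL. Ligated livers had almost none, with 0.228, 0.169, 0.236 and 0.396 in miR-Ctrl BDL and 2.66, 0.0715, 0.171 and 0.418 in the inhibitor group. These rest on 3 to 7 reads in miR-Ctrl BDL and on 45, 1, 3 and 9 reads in the inhibitor group. The log2 fold change was −9.97 (SE 0.481) in miR-Ctrl BDL and −8.31 (SE 0.9) in the inhibitor group, the latter −10.1 without mouse 1. Of its 50-base windows 21.2% are shared with another gene, mostly Hsd3b4.

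Serpina4-ps1, Entrez 321018 (chromosome 12, 104077959 to 104086920), is a transcribed pseudogene of the serpin family. It was at 383, 138, 119, 274 and 251 without BDL, at 0.398, 1.29, 0.236 and 0.68 in miR-Ctrl BDL, and at 2.66, 0.644, 1.25 and 2.18 in the inhibitor group. The lowest liver without BDL stood far above the highest ligated liver. The log2 fold changes were −8.39 (SE 0.59) and −7.06 (SE 0.555).

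Elovl3, Entrez 12686 (chromosome 19, 46131897 to 46135694), encodes an elongase of very long chain fatty acids. It varied widely without BDL, at 274, 400, 41.9, 71.7 and 463, and was at 3.98, 3.38, 3.38 and 1.76 in miR-Ctrl BDL. In the inhibitor group it was at 26.5 in mouse 1 and at 2.58, 2.68 and 3.07 in the others. The groups did not overlap, although inhibitor mouse 1 came near no BDL mouse 3. The log2 fold change was −6.30 (SE 0.827) in miR-Ctrl BDL and −4.82 (SE 1.07) in the inhibitor group, the latter −6.47 without mouse 1.

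Selenbp2, Entrez 20342 (chromosome 3, 94693573 to 94704406), encodes a selenium binding protein. It kept a high level after BDL, unlike the other 3 hepatocyte output genes. Without BDL it was at 557, 2049, 405, 964 and 1150, in miR-Ctrl BDL at 585, 730, 146 and 343, and in the inhibitor group at 703, 168, 762 and 709. The groups overlapped, and the lowest value of each ligated group was in the liver that stood apart. The log2 fold changes were −1.16 (SE 0.554) and −0.78 (SE 0.543), and −0.87 and −0.48 without those livers. Since 43.9% of its 50-base windows also occur in Selenbp1, its count may hold reads of that gene.

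**Figure D3:**
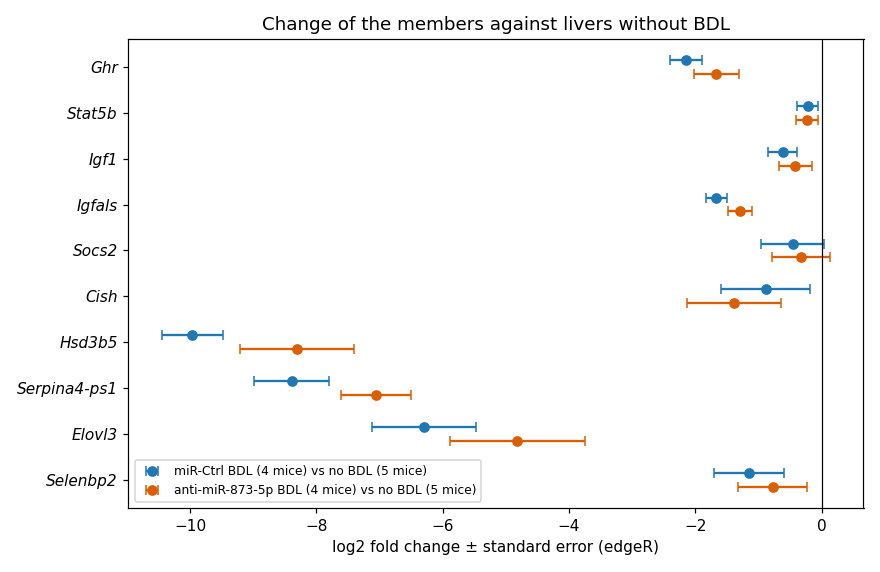
Log2 fold change of the 10 genes against livers without BDL (points, with 1 standard error from edgeR), for miR-Ctrl BDL (4 mice) and anti-miR-873-5p BDL (4 mice), each against the same 5 mice. Hsd3b5 lies farthest from 0 and Stat5b closest, and every point is below 0 with TMM scaling, while Stat5b, Igf1, Socs2 and, in the inhibitor group, Selenbp2 turn positive with library size alone.

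With TMM scaling all 10 genes had a log2 fold change below 0 in both comparisons, which share the 5 mice without BDL, while Stat5b, Igf1, Socs2 and, in the inhibitor group, Selenbp2 were above 0 with library size alone. Their median was −1.41 in miR-Ctrl BDL and −1.34 in the inhibitor group, beside −0.01 and −0.01 for all genes tested. In each comparison 5 of the 10, namely Ghr, Igfals, Hsd3b5, Serpina4-ps1 and Elovl3, did not overlap between groups, beside 14.8% and 8.27% of all genes that were lower without overlap. The choice of the genes used these comparisons, so nothing is read from those counts. Per kilobase, Serpina4-ps1, Elovl3 and Hsd3b5 had medians of 195, 139 and 130 without BDL, above the 47.4 of Igf1. In miR-Ctrl BDL they were at 0.419, 1.71 and 0.150, at or below the 1.71 of Socs2.

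Scaling mattered to the small changes. With library size alone in place of TMM, the median of all genes moved to 0.79 in miR-Ctrl BDL and 0.82 in the inhibitor group. Relative to those medians all 10 genes remained below. Relative to 0, Stat5b (0.61 and 0.62), Igf1 (0.14 and 0.37) and Socs2 (0.30 and 0.47) turned positive in both comparisons and Selenbp2 in the inhibitor group (0.15). Ghr, Igfals, Cish, Hsd3b5, Serpina4-ps1 and Elovl3 kept their sign.

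The rest of the pathway was read from 4 lists of other genes, which were tested in each comparison with edgeR's quasi-likelihood test and Benjamini-Hochberg adjustment over all genes. The lists too were chosen with earlier results of these data known. Their calls and adjusted p-values against no BDL are therefore a description and not an independent test. In miR-Ctrl BDL 30 of 60 tested genes of these lists changed, and in the inhibitor group 20 of 61. Of all genes, miR-Ctrl BDL had 19.1% called higher and 16.6% lower, and the inhibitor group had 13.1% and 8.44%. With library size alone miR-Ctrl BDL had 9360 genes called higher and 275 lower, in place of 2491 and 2175. The inhibitor group had 10063 and 131, in place of 1715 and 1108. Directions below are therefore relative to the median gene unless said otherwise.

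Of 18 genes of growth hormone signalling, all tested, 6 rose and 2 fell in miR-Ctrl BDL, and 1 rose and 1 fell in the inhibitor group. Scaled by library size alone, 12 rose and 1 fell in miR-Ctrl BDL, and 12 rose and 0 fell in the inhibitor group. The number that fell in miR-Ctrl BDL was 4 without mouse 3. In the inhibitor group 2 rose without no BDL mouse 5 or inhibitor mouse 2, and 0 fell without no BDL mouse 4 or inhibitor mouse 1. Their median log2 fold changes with TMM were 0.25 and 0.11. The inhibitor Socs3 rose in both, with log2 fold changes of 2.82 (SE 0.679, adjusted p = 0.01) and 1.91 (SE 0.424, adjusted p = 0.0134). Its level was 13.1, 4.77, 11.6, 14.8 and 22.1 without BDL, 20.6, 52.0, 253 and 49.2 in miR-Ctrl BDL, and 19.4, 57, 70.6 and 49.8 in the inhibitor group. Mouse 1 of each ligated group lay within the range without BDL. In miR-Ctrl BDL the value was 1.63 without mouse 3 and still passed (adjusted p = 0.0112). Socs3 is also induced by IL-6 through STAT3, and the summed level of 10 acute-phase genes (none at 0) was 7793 to 8925 in 4 livers without BDL, 41169 in no BDL mouse 5, 16756 to 58358 in miR-Ctrl BDL and 14086 to 23534 in the inhibitor group. Hp was a large share of that sum, at 1987 to 2677 in the same 4 livers without BDL and 6117 to 12744 in the inhibitor group. The log2 fold changes of all 10 were above 0 in miR-Ctrl BDL (median 1.17), but 6 were above and 4 below 0 in the inhibitor group (median 0.10). No BDL mouse 5 weighs on these values. It had Saa1 at 6440, against 45.0 to 92.9 in the other 4 and 128 to 794 in the inhibitor group. All of the genes but Fgb and Itih4 were higher in every inhibitor liver than in those 4. The part of the acute-phase genes in the Socs3 result was not tested.

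Jak2, the kinase bound to the receptor, rose slightly in miR-Ctrl BDL, with a log2 fold change of 0.44 (SE 0.108, adjusted p = 0.0104), and its value in the inhibitor group was 0.11 (adjusted p = 0.529). The phosphatase gene Ptpn6 (0.68, SE 0.159, adjusted p = 0.00876) and the adaptor gene Grb2 (0.36, SE 0.113, adjusted p = 0.0316) were also higher in miR-Ctrl BDL. The Grb2 call was lost when any of 6 mice was left out in turn (no BDL mice 2, 3 and 4 and miR-Ctrl BDL mice 1, 2 and 4), with adjusted p from 0.0510 to 0.0757 in edgeR. Ptpn6 is a gene of blood cells, and the summed macrophage markers (5 genes) were 85.2 to 417 without BDL and 319 to 893 in miR-Ctrl BDL. The part of those cells in the Ptpn6 value was not tested. In the inhibitor group Ptpn6 gave 0.41 (adjusted p = 0.189), and without mouse 2 it gave 0.56 and passed (adjusted p = 0.0302 in edgeR). Stat5a, the close relative of Stat5b, had log2 fold changes of 0.10 (adjusted p = 0.694) and −0.01 (adjusted p = 0.97). Bcl6 gave −0.24 (adjusted p = 0.842) and 0.15 (adjusted p = 0.921), with the wide spread within groups given above.

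Prlr, which encodes the prolactin receptor, a relative of the growth hormone receptor, fell in miR-Ctrl BDL with a log2 fold change of −1.24 (SE 0.25, adjusted p = 0.00439). Its level there was 25.3, 33.6, 24.2 and 27.8 against 67.5, 99.6, 74.0, 37.9 and 54.8 without BDL. With library size alone it gave −0.42 (adjusted p = 0.159). In the inhibitor group it gave −0.81 with no call (adjusted p = 0.0897 in edgeR), and mouse 3 lay at 60.1 within the range without BDL. Without that mouse it gave −1.16 and passed (adjusted p = 0.0352 in edgeR). Onecut1, a hepatocyte transcription factor gene that growth hormone induces, fell in both, with log2 fold changes of −2.21 in miR-Ctrl BDL (SE 0.436, adjusted p = 0.004) and −1.78 in the inhibitor group (SE 0.479, adjusted p = 0.0276). It shares 52.3% of its windows with Gm20649, and its level was at most 9.45. The second call was lost without no BDL mouse 4, inhibitor mouse 1 or mouse 3 (adjusted p = 0.0524, 0.0519 and 0.0563 in edgeR) and with library size alone (adjusted p = 0.107).

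Of 15 further genes of the IGF axis, 10 passed the filter on low counts. In miR-Ctrl BDL 3 rose and 1 fell, and in the inhibitor group 3 rose and 0 fell. Scaled by library size alone, 8 rose and 0 fell in each. Of the same genes 1 rose in the inhibitor group without no BDL mouse 1 or 2 or inhibitor mouse 4, 5 rose without inhibitor mouse 1, and 1 fell without inhibitor mouse 2. In miR-Ctrl BDL 2 fell without mouse 3. Igfbp3, which encodes the binding protein that joins IGF1 and the acid-labile subunit in blood, fell in miR-Ctrl BDL with a log2 fold change of −0.99 (SE 0.197, adjusted p = 0.00413), from 10.8 to 15.8 without BDL to 5.01 to 8.27. With library size alone the value was −0.20 (adjusted p = 0.492). In the inhibitor group it was at 9.80, 17.9, 5.76 and 7.21, and the highest of these was mouse 2, which stood apart. Without it Igfbp3 gave −0.78 there and passed (adjusted p = 0.0177 in edgeR). Igfbp5, which encodes a further binding protein, rose in both, with log2 fold changes of 1.69 (SE 0.346, adjusted p = 0.00462) and 2.51 (SE 0.619, adjusted p = 0.0202). The second value was 1.81 (adjusted p = 0.0303) without inhibitor mouse 2, and its call was lost without no BDL mouse 1 or 2 or inhibitor mouse 4 (adjusted p = 0.0510, 0.0515 and 0.0524 in edgeR).

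Igfbp6 was at 0 in 4 livers without BDL and rested on at most 1 read in the fifth, while ligated livers had 0.967 to 8.66. Set against a floor of 3 reads per library, it was higher at least 13.6-fold in miR-Ctrl BDL and at least 21.7-fold in the inhibitor group (adjusted p = 0.000299 and 0.000613). Igf2r, which encodes the receptor that clears IGF2, rose in miR-Ctrl BDL with a log2 fold change of 0.39 (SE 0.107, adjusted p = 0.0183), a call lost without miR-Ctrl BDL mouse 1 (adjusted p = 0.0603 in edgeR). The sum of 5 stellate and fibroblast markers was 44.3 to 82.4 without BDL, 133 to 469 in miR-Ctrl BDL and 75.8 to 577 in the inhibitor group, with none of the 5 at 0 in any liver. In each ligated group the liver with the highest Igfbp5 had the lowest sum, namely miR-Ctrl BDL mouse 3 (10.8 and 133) and inhibitor mouse 2 (30.3 and 75.8).

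Igfbp1, whose product binds IGF1 and whose gene is held down by insulin, had no call in either comparison (adjusted p = 0.142 and 0.314). Its level was 17.6 to 64.0 in 4 livers without BDL and 492 in mouse 1, and 48.7 to 129 in 6 ligated livers. It reached 3051 in miR-Ctrl BDL mouse 3 and 1747 in inhibitor mouse 2. Its log2 fold changes of 2.74 and 1.96 became −0.23 and −0.81 without those 2 livers. Without no BDL mouse 1 the value in miR-Ctrl BDL was 4.57 and passed (adjusted p = 0.0298 in edgeR).

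Of 20 other male-biased genes, 14 of the 19 tested fell in miR-Ctrl BDL and 11 of 20 in the inhibitor group, and none rose. All tested members of the list had values below 0 with TMM scaling, with medians of −2.49 and −2.00. With library size alone 12 and 9 still fell and none rose. Mup3 and Mup21 encode major urinary proteins, the pheromone carriers of male mice. Mup3 fell with log2 fold changes of −6.48 and −5.34 (SE 0.676 and 0.726, adjusted p = 0.000212 and 0.00192). It was at 3448 to 6576 without BDL, 9.59 to 93.0 in miR-Ctrl BDL and 28.3 to 306 in the inhibitor group. Mup21 had −6.75 and −5.41 (SE 0.627 and 0.766, adjusted p = 0.000124 and 0.00228). Mup21 and Mup3 share 19.3% and 13.3% of their windows with other genes, mostly with each other. Slco1a1, which encodes a bile acid and organic anion uptake carrier, had −6.57 and −4.74 (SE 0.595 and 0.551, adjusted p = 0.000121 and 0.00114). Cyp4a12a, which encodes a male-specific fatty acid hydroxylase, had −4.74 and −3.65 (SE 0.357 and 0.691, adjusted p = 6.05e-05 and 0.00704). It shares 48.9% of its windows with Cyp4a12b.

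The highest ligated liver was inhibitor mouse 1 for Mup3, Mup21, Slco1a1 and Cyp4a12a, as it was for Ghr, Hsd3b5, Serpina4-ps1 and Elovl3. Without it the values in the inhibitor group were −6.36, −6.62, −5.34 and −4.88 for the 4 genes. In miR-Ctrl BDL Slco1a1 gave −7.33 without mouse 1. The number of list genes called in the inhibitor group was 31 without that mouse in place of 20.

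Of 22 female-biased genes 13 were tested in each comparison, and 1 rose and 3 fell in both. In the inhibitor group the split was 4 and 0 with library size alone, and in miR-Ctrl BDL it was 5 and 3. The number that rose in the inhibitor group was 5 without inhibitor mouse 1 and 2 without mouse 2, and in miR-Ctrl BDL it was 2 without no BDL mouse 1 or miR-Ctrl BDL mouse 1 or 4. Cyp2c69 and Cyp2c40 encode cytochromes P450. Cyp2c69 fell with log2 fold changes of −1.78 and −1.46 (adjusted p = 0.000221 and 0.00736), Cyp2c40 with −1.64 and −1.35 (adjusted p = 0.000283 and 0.00545) and the transporter gene Slc22a27 with −2.28 and −2.02 (adjusted p = 0.000654 and 0.0318). All 3 lost the call in the inhibitor group with library size alone (adjusted p = 0.0886 for Cyp2c40, 0.0723 for Cyp2c69 and 0.0638 for Slc22a27). Cyp2c69 and Cyp2c40 share 54.3% and 60.3% of their windows with other genes, mostly with each other. Slc22a27 shares 29.9% of its windows with other genes, mostly Slc22a29. Slc22a27 lost its second call without no BDL mouse 1, 2 or 4 or inhibitor mouse 3 or 4 (adjusted p from 0.0595 to 0.0894 in edgeR), and its value was −2.74 without inhibitor mouse 1. Prom1, which rose with log2 fold changes of 2.63 and 2.11 (adjusted p = 0.00283 and 0.0032), also marks bile duct cells, and all 5 cholangiocyte markers rose in both comparisons, with median log2 fold changes of 3.19 and 3.48. Their part in the Prom1 result was not tested.

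**Figure D4:**
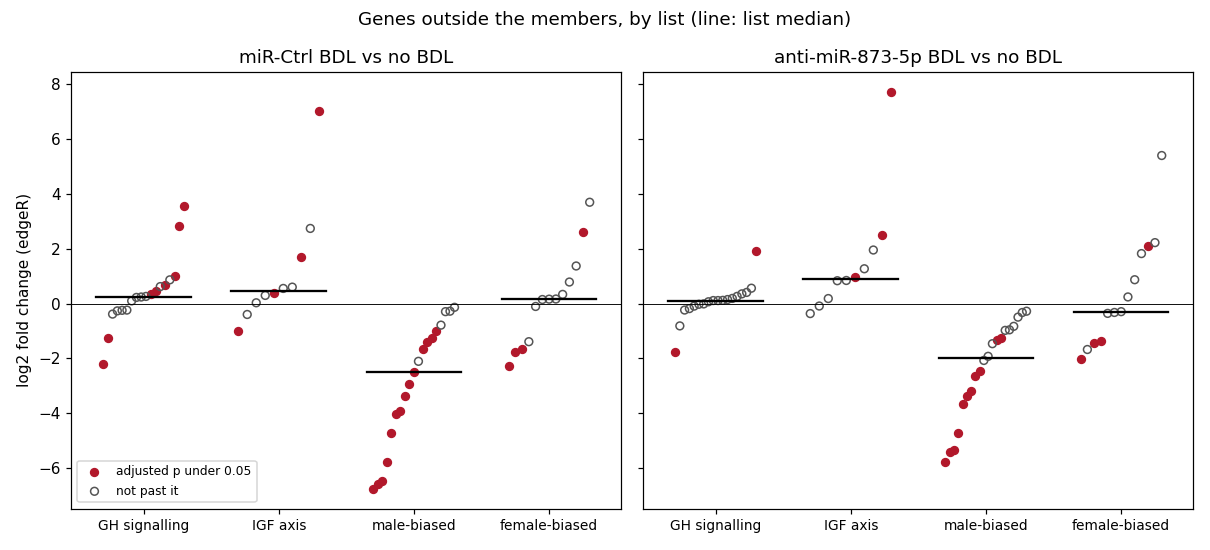
Log2 fold change of each tested gene in 4 lists outside the 10 genes (points sorted within a list, filled where the adjusted p was under 0.05, with a line at the list median), for miR-Ctrl BDL (left) and anti-miR-873-5p BDL (right) against no BDL. With TMM scaling the male-biased list lies wholly below 0, with medians of −2.49 and −2.00, while the other lists have members on both sides.

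The deposited table of the ligated groups compares anti-miR-873-5p with miR-Ctrl in 3 mice each, and asks whether the inhibitor changed these genes. Hsd3b5 did not pass the filter on low counts, and none of the other 9 genes was called by edgeR's quasi-likelihood test. Over all 13746 genes 0 were called, with 863 at an unadjusted p under 0.05 and a lowest adjusted p of 0.757, and DESeq2 called 30. Of 72 tested genes of the 10 and the 4 lists, 8 had an unadjusted p under 0.05 in edgeR and none was called by either tool.

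Igfals had the smallest p of the 9, with a log2 fold change of 0.42 (SE 0.13, adjusted p = 0.757 in edgeR). It was at 49.0, 58.6 and 48.9 in the 3 inhibitor livers and at 37.4, 44.4 and 34.9 in the 3 miR-Ctrl BDL livers, so the groups did not overlap. This was the case for 1 of the 9 genes and for 11.4% of all genes, and the omitted inhibitor mouse 2 lay at 37.8, within the miR-Ctrl BDL range. Leaving out each mouse in turn gave 0.32 to 0.52. Serpina4-ps1 gave 1.35 (SE 0.471, adjusted p = 0.757 in edgeR) on 7 to 47 reads a liver. An exact permutation test of 3 against 3 livers cannot give a p below 0.1.

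Other genes changed sign with single livers. Ghr gave 0.48 (SE 0.349, adjusted p = 0.834 in edgeR) and −0.07 without inhibitor mouse 1. Elovl3 gave 1.81 (SE 0.921, adjusted p = 0.782 in edgeR) and −0.09 without that mouse. Socs2 gave 0.38 (SE 0.678) and −0.51 without inhibitor mouse 3, and Cish gave −0.47 (SE 0.898) and 0.69 without miR-Ctrl BDL mouse 2. Selenbp2 (0.39, SE 0.272), Igf1 (0.15, SE 0.173) and Stat5b (0.0038, SE 0.108) make up the 9, and the sign of the last turned under several settings.

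Among the listed genes the smallest p of each list belonged to Htra1, Cyp2c69, Slco1a1 and Insr. Their log2 fold changes were 1.27, 0.43, 1.85 and 0.23, with adjusted p = 0.757 for the first 3 and 0.775 for Insr in edgeR. Htra1 encodes a protease that cuts IGF binding proteins, and Insr encodes the insulin receptor.

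Genes that followed the 10 across livers were ranked by Pearson r of group-centred log2 levels over 13 mice, among 12378 genes with a mean normalized count of at least 1. Closest to Hsd3b5 was Nudt7 (0.95, Spearman rho 0.868). Inhibitor mouse 1 held 45 reads of Hsd3b5 and the other ligated livers 1 to 9, so their levels are imprecise. Nudt7 is also in the male-biased list, and its level was 554 to 820 without BDL, 49.2 to 91.0 in miR-Ctrl BDL, and 296 in inhibitor mouse 1 against 37.3 to 94.3 in the other 3. Closest to Socs2 were Wsb1 (0.923), Rela (0.913) and Lrrfip1 (0.911). Wsb1 was highest in miR-Ctrl BDL mouse 3, at 75.7, and lowest in inhibitor mouse 1, at 13, the mice at or near the extremes of Socs2.

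Closest to Igf1 were Hrg (0.98), Atg16l1 (0.976) and Cux2 (0.975). All 3 were highest in inhibitor mouse 2 and miR-Ctrl BDL mouse 3, and r without these livers was not computed. Hrg was at 1905 and 1445 in them and at 471 to 1018 in the other 11. Atg16l1 was at 43.4 and 39.2 in them and at 22.1 to 33.9 in the other 11. Cux2 was at 35.3 in inhibitor mouse 2 and 10.53 in miR-Ctrl BDL mouse 3, and at 0.075 to 1.25 in the other 11 livers. Cux2 is in the female-biased list. The livers with the highest Igf1 of the 2 ligated groups were also those with the highest Cux2. The r values share the libraries and the subtracted group means and carry no p.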

How the data were processed

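Liver RNA of 13 mice was sequenced with the TruSeq RNA v2 kit as single reads of 50 nt. Per the labels and the study's methods, the authors used CASAVA 1.8.2, FastQC, Trim Galore and TopHat with mm10, and deposited 1 table for each comparison with raw counts per Entrez gene. The counting program and its annotation are not given in the sources used here. The study's supplement says that outliers were filtered and does not name the mice. All columns were used and 0 were left out.

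The tests used edgeR 4.0.16 under R 4.3.3 (filterByExpr, TMM, quasi-likelihood test, Benjamini-Hochberg adjustment over all genes, threshold 0.05). Standard errors are the log2 fold change over the square root of F. Each comparison used the mice of its table. Levels are normalized counts from edgeR's cpm over 13 mice, joined over the 22664 genes whose counts agreed between tables within 2 reads or 1%. Windows shared between genes came from GENCODE M21 transcripts, and gene coordinates from GRCm38.p6. Because nothing states separate experiments, p-values measure the spread between these mice. On simulated counts the tests were checked for recovery of known log2 changes of 2. The outcome is not reported here, so it says nothing of the power of any comparison. The depth was 12185333 to 19689037 counts per mouse. Standard errors include the spread between mice, while the floor of 3 reads covers counting error only.

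The 10 genes and the lists were chosen with earlier results of these data known. Named were the 10 genes, Jak2, Stat5a, Socs3, Bcl6 and Igfbp1, up to 4 genes at each end of each list per comparison among called genes without overlap, the smallest p of each list between the ligated groups, and the 3 genes closest to Socs2, Igf1 and Hsd3b5, of which those below the first for Hsd3b5 are not reported here. Hepatocyte, cholangiocyte, macrophage, stellate, endothelial, neutrophil, lymphocyte and acute-phase lists were summed. Mouse numbers name different animals. Deviations of same-numbered mice correlated at −0.40 to 0.65 over 12 pairs, with 4 above 0.1, so no pairs were used. Alternatives were DESeq2's size factors in edgeR, library size alone, all genes with at least 1 count, DESeq2 1.42.0, a joint fit of the 3 groups, a block for the mouse number, all 4 mice of each ligated group, and leaving out each mouse.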

Additional observations from a re-analysis of the deposited data

Results flagged for a closer look

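Dixon's test looked for a liver far from the others of its group in 45 groups of 4 or 5 livers among part of the named genes, and found 9. Chance gives about 1 in 20 for independent, normally distributed values. The counts were not log transformed and the genes share livers, so that rate does not apply here. In inhibitor mouse 1, Hsd3b5 (2.66) and Elovl3 (26.5 normalized counts) lay above the other 3 livers. In inhibitor mouse 2, Selenbp2 (168) and Stat5a (13.6) lay below the other 3 and Igfbp1 (1747) above them. In miR-Ctrl BDL mouse 3, Socs3 (253) and Igfbp1 (3051) lay above the other 3. Without BDL, Bcl6 (104) was high in mouse 2 and Igfbp1 (492) in mouse 1. Of the 9, 5 came from the 2 livers that stood apart, and their cause was not tested.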

How the results depend on the processing

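Scaling by library size alone moved more values than any other setting tried here. It put the median of the log2 fold changes over all genes at 0.79 in miR-Ctrl BDL and 0.82 in the inhibitor group, and turned the sign of Stat5b (0.61 and 0.62), Igf1 (0.14 and 0.37), Socs2 (0.30 and 0.47) and Insr (0.39 and 0.57) in both, of Bcl6 (0.68) in miR-Ctrl BDL, and of Selenbp2 (0.15), Stat5a (0.84), Prlr (0.033) and Igfbp3 (0.40) in the inhibitor group. The list genes called there numbered 33 in place of 20. Leaving out each mouse gave 14 to 31 list calls in the inhibitor group, 29 to 36 in miR-Ctrl BDL and 0 between the ligated groups. Ranges that crossed 0 when each mouse was left out were, in miR-Ctrl BDL, −0.019 to 0.23 for Stat5a, −0.57 to 0.97 for Bcl6 and −0.23 to 4.57 for Igfbp1, and in the inhibitor group −0.085 to 0.12, −0.53 to 1.36 and −0.81 to 3.78 for the same genes. Between the ligated groups they were −0.075 to 0.72 for Ghr, −0.051 to 0.074 for Stat5b, −0.51 to 1.19 for Socs2, −1.82 to 0.69 for Cish, −0.090 to 2.27 for Elovl3, −0.24 to 0.56 for Socs3, −0.048 to 1.05 for Bcl6, −0.11 to 0.28 for Igfbp3, −0.52 to 0.75 for Igfbp5, −0.084 to 1.11 for Igfbp6, −0.43 to 1.86 for Cyp4a12a and −0.21 to 0.69 for Slc22a27. That comparison turned for Stat5b with DESeq2's size factors (−0.0019), DESeq2 (−0.0024), all groups fitted together (−0.012) and all 4 mice of each ligated group (−0.010). The last 2 also turned Stat5a (−0.115 and −0.114) and Socs3 (−0.926 and −0.920). With the mouse number as a replicate block, list calls were 31 in miR-Ctrl BDL, 15 in the inhibitor group and 0 between the ligated groups. Bcl6 (0.40) in miR-Ctrl BDL, Stat5a (0.031) in the inhibitor group, and Stat5b (−0.035) and Socs3 (−0.040) between the ligated groups turned sign under that block. It ended the calls of Jak2 (adjusted p = 0.0726) and Igf2r (0.0786) in miR-Ctrl BDL and of Onecut1 (0.0653), Igfbp5 (0.113) and Slc22a27 (0.0746) in the inhibitor group, in edgeR. Same-numbered mice are different animals. The causes were not tested. With 3 mice per ligated group, small differences there could not be resolved.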

Other observations

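The 2 livers absent from the table of the ligated groups shared further values outside the comparisons above. Cyp4a14, a female-biased fatty acid hydroxylase gene also induced by PPAR alpha, was at 2708 in inhibitor mouse 2 and 860 in miR-Ctrl BDL mouse 3, and at 0.675 to 103 in the other 11 livers. Tat, a glucocorticoid-induced gene of amino acid breakdown from the hepatocyte marker list, was at 4562 and 3337 in these livers and at 401 to 1084 in the other 11. Mup20, a male-biased pheromone gene, was at 232 and 145 there and at 1079 or above elsewhere. These values stand beside the high Igf1 and low Ghr of the same livers, and the genes of this paragraph were chosen after their values were seen. The cause was not tested.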
